A study of Mus musculus with 27 samples.

Results

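Krüppel-like factors are transcription factors that share a DNA-binding domain of zinc fingers. Expression of 8 of their genes, Klf2, Klf3, Klf4, Klf6, Klf7, Klf9, Klf10 and Klf13, was followed in mouse cells from fetal to adult life. The cells were described as haematopoietic stem and progenitor cells (HSPCs). The genes were taken by symbol, as 8 of the 24418 entries of the deposited expression table. Bulk RNA sequencing covered 27 libraries in 9 groups of 3. The liver groups were E12.5 FL and E16.5 FL. The marrow groups were Perinatal BM and those of mice aged 1, 3, 4, 6 and 8 weeks, named 1w, 3w, 4w, 6w and 8w BM. The last group was E12.5 PL. All animals were of the C57BL/6 strain, and the labels give no genetic change and no treatment for any group. The labels leave PL unexplained, and FL and BM were read as fetal liver and bone marrow. They do not state the sort markers, the animals' sex, the perinatal day or whether animals were pooled. Nothing states that the libraries of a group came from separate animals, so p-values reflect the spread among these libraries alone, which may be technical. In bulk RNA, fewer expressing cells and less RNA per cell cannot be told apart.

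The zinc fingers of this family bind CACCC boxes and GC-rich DNA, and the rest of the protein decides whether a member activates or represses. Klf2, Klf4 and Klf6 contain activation domains. Klf3 recruits the corepressor CtBP, and Klf9, Klf10 and Klf13 recruit Sin3a. Several members are induced quickly by outside signals: Klf2 by laminar flow in endothelium, Klf9 by glucocorticoid and thyroid hormone, and Klf10 by TGF-β. Klf2 also keeps naive T cells quiescent and maintains their expression of S1pr1.

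RefSeq promoter sequence on GRCm38.p6 matched 7 of the 8 genes, and Klf10 is named only. The windows below are the 250 bases before the annotated start of transcription. They are shown for Klf2, Klf4, Klf6 and Klf9, the genes with the largest differences in the comparisons among liver and marrow groups. They lie at chr8:72318812-72319061 on the plus strand for Klf2, chr4:55532476-55532725 on the minus strand for Klf4, chr13:5861239-5861488 on the plus strand for Klf6 and chr19:23140976-23141225 on the plus strand for Klf9. In GENCODE M21 on GRCm38, Klf2 begins at 72319033 and Klf6 at 5861482, so the last bases of their windows lie within the annotated genes. Capitals mark matches, on either strand, to a CACCC box (CACCC), a GC box (GGGCGG), a MEF2-type site (CTA and TAG with any 4 bases between) or a CRE-type element (TGACGT).
Klf2: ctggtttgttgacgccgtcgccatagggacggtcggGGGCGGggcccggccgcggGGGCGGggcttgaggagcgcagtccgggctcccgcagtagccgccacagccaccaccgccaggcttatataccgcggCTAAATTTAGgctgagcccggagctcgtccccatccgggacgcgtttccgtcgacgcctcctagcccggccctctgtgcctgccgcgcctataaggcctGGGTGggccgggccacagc
Klf4: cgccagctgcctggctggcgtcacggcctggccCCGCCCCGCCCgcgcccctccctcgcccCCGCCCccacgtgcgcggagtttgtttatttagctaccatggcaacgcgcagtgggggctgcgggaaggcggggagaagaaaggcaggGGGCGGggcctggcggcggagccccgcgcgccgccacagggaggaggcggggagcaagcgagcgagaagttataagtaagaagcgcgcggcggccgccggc
Klf6: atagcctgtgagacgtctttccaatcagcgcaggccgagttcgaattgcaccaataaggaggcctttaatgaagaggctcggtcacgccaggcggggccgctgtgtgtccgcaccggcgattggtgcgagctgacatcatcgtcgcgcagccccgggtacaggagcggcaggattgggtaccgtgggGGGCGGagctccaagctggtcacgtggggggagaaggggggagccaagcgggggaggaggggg
Klf9: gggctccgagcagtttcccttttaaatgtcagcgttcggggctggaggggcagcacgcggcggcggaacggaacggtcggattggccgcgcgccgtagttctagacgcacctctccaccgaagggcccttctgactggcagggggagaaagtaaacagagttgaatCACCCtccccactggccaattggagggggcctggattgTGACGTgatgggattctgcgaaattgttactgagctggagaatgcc
The Klf2 window held 2 GC boxes, 1 CACCC box on the reverse strand and 1 MEF2-type match, CTAAATTTAG, at -118 to -109 from the start. MEF2 factors are known activators of Klf2 downstream of the kinase ERK5. A MEF2-type match occurred in 3.2% of the 32851 mouse promoter windows, and Klf2 was the only one of the 7 genes with such a match. The Klf4 window held 4 GC boxes, of which a pair overlapped by a single base, and the Klf6 window held 1. The Klf9 window had no GC box, 1 CACCC box and 1 CRE-type element at -46 to -41. Of all windows, 32.7% held a GC box, 52.0% a CACCC box and 6.47% a CRE-type element. GC content was 71.2% for Klf2, 74.0% for Klf4, 64.8% for Klf6 and 59.6% for Klf9, against a median of 52.4% over all windows. The matches describe letters and are not evidence of binding.

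**Figure D1:**
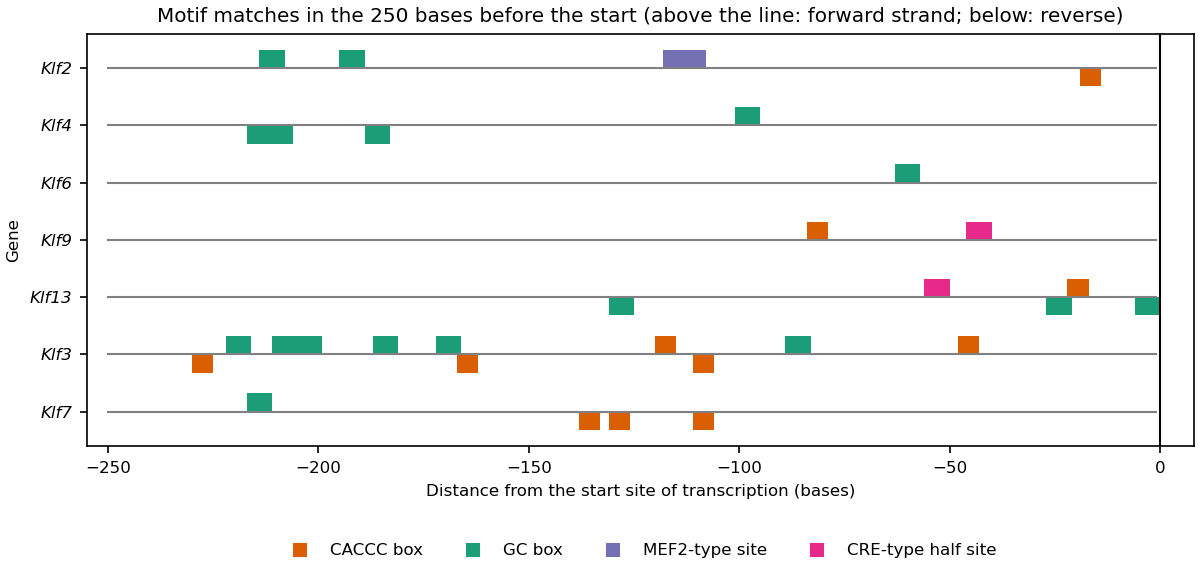
Motif matches in the 250 bases before the RefSeq start of transcription of 7 Krüppel-like factor genes, by distance from that start in bases. In GENCODE M21 the whole Klf7 window lies within the annotated gene. The Klf3 window, which ends at 64803520, runs into the Klf3 gene, which begins at 64803388. Boxes above a line are on the gene's strand and boxes below it on the other. Klf3 had the most matches, 6 GC boxes and 5 CACCC boxes, some of them overlapping, and the MEF2-type match stands only in Klf2.

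Expression was given as FPKM, a measure of fragments scaled by transcript length and library size, so the total count of a library is unknown. Relative depth was estimated from the most common ratio of low values to those of the library E12.5 FL1. It ran from 0.684 to 1.62 times that of the median library. Libraries of a group correlated at 0.979 to 0.995 across genes, those of different FL and BM groups at 0.927 to 0.990, and E12.5 PL libraries with all the rest at 0.667 to 0.781. All 14 HSPC markers, such as Kit, Myb and Ptprc, reached 1 FPKM in every FL and BM library, and 13 did in E12.5 PL. For the Krüppel-like factors, 2 single libraries lay at an end of their groups for several genes. The second 6w BM library (6w BM2) had the highest Klf2, Klf4, Klf6, Klf9, Klf10 and Klf13 of its group, and the second 8w BM library (8w BM2) had the lowest Klf2, Klf4, Klf6 and Klf10 of its group. The library 8w BM3 had the highest Klf2, Klf4, Klf6 and Klf10 of its group. For Klf10, 8w BM1 (42.7 FPKM) lay nearer to 8w BM2 (35.8 FPKM) than to 8w BM3 (84.9 FPKM). Immediate-early genes are a set of 20, such as Fos, Jun, Egr1 and Nr4a1, that cells induce within minutes of a stimulus. The sum of these genes was the highest of its group in 6w BM2 and the lowest of its group in 8w BM2. Their summed level was 17676 FPKM in 6w BM2, against 12917 and 11286.5 FPKM in the other 6w BM libraries. It was 4051 FPKM in 8w BM2, against 6081 and 10059 FPKM in the other 8w BM libraries.

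**Figure D2:**
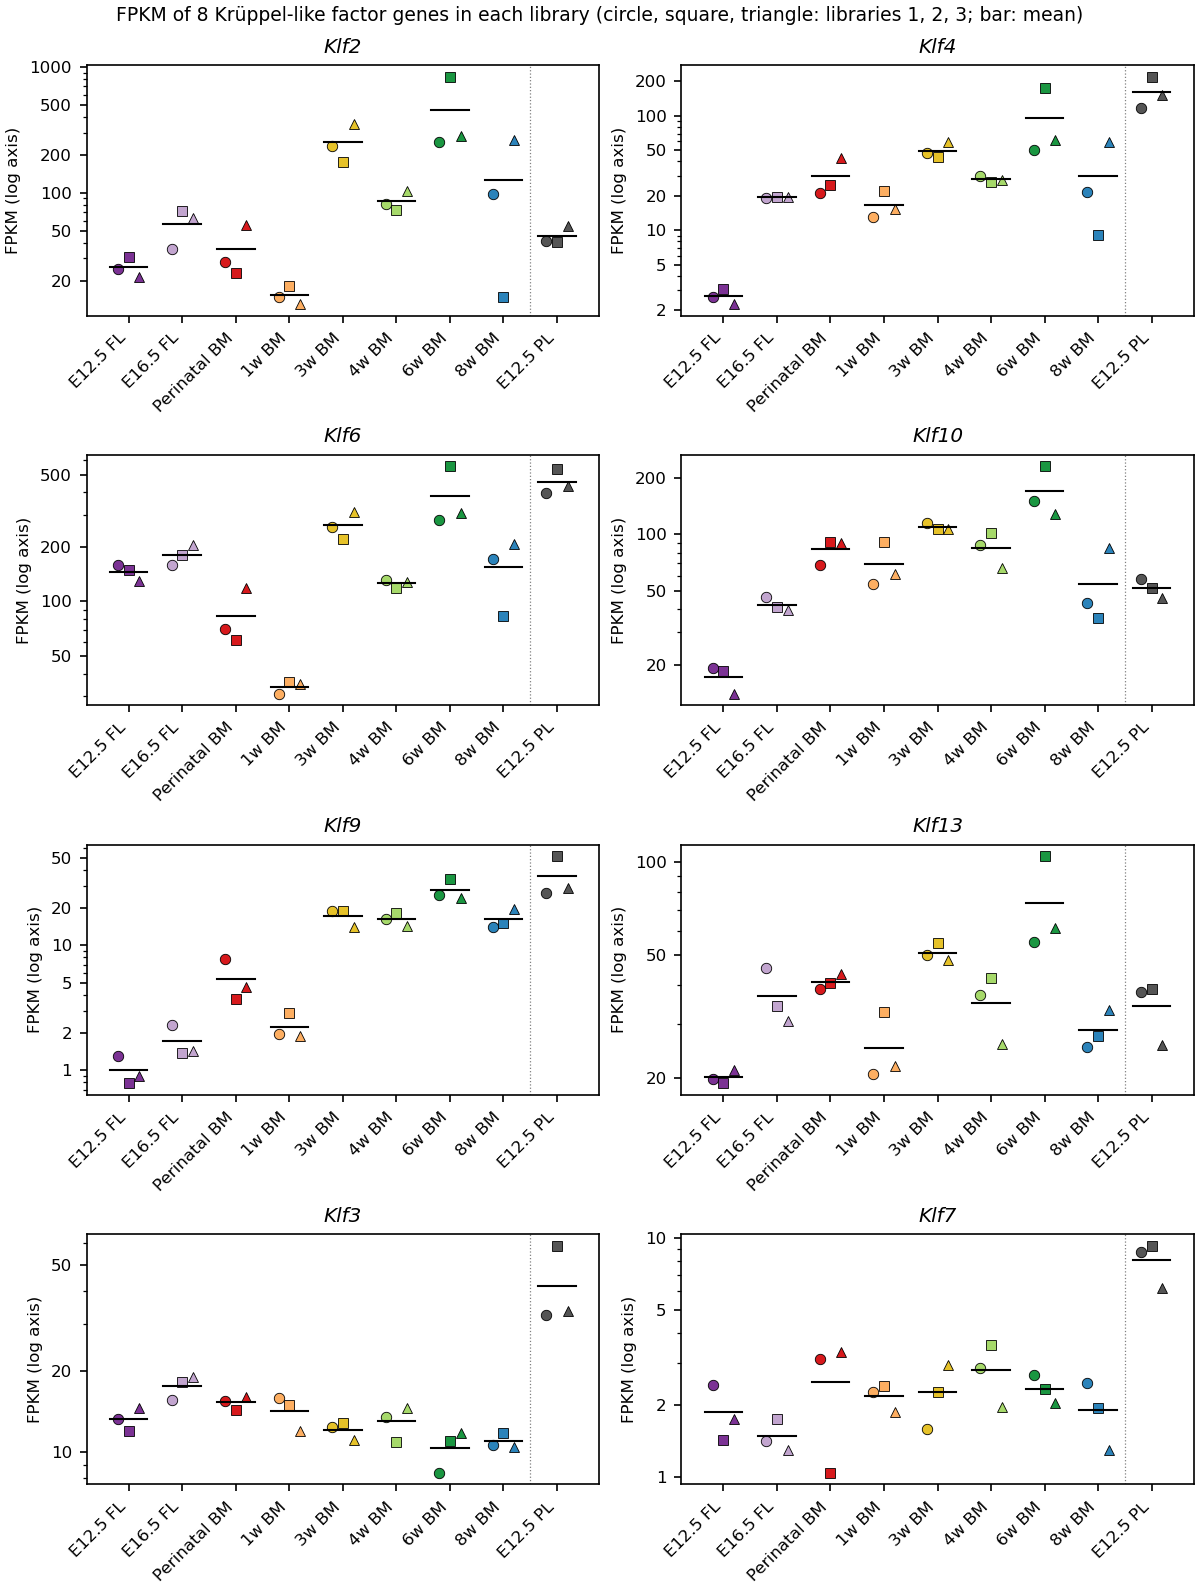
FPKM on a log axis of the 8 genes in each of the 27 libraries, with 1 panel per gene, groups in time order and E12.5 PL last. Circles, squares and triangles are libraries 1, 2 and 3 of a group, and bars are means. Klf2 spans 13.0 to 838 FPKM over the marrow libraries, and Klf7 stays between 1.04 and 3.55 FPKM in all liver and marrow libraries.

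Differences between groups were tested with limma on log2(FPKM + 1), adjusted by the Benjamini-Hochberg method over all 13350 genes tested, and all 8 genes passed the filter on low values. Log2 differences below are on this scale, which understates the change of low genes, and each is the first-named group minus the second. Across the 8 liver and marrow groups, a moderated F test called 7 of the 8 genes at an adjusted p under 0.05, against 74.8% of all genes tested. The exception was Klf7, at an adjusted p of 0.386. The smallest limma adjusted p was that of Klf9 (2.56e-12), followed by Klf10 (1.1e-08) and Klf6 (1.28e-08).

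Klf2 was low in early liver and in 1w BM and highest in 3w and 6w BM. The libraries held 24.5, 30.9 and 21.5 FPKM in E12.5 FL, 35.7, 71.5 and 62.8 FPKM in E16.5 FL, and 28.0, 23.0 and 55.3 FPKM in Perinatal BM. They held 14.7, 18.2 and 13.0 FPKM in 1w BM, 237, 176 and 350.3 FPKM in 3w BM, and 81.3, 72.7 and 103 FPKM in 4w BM. They held 252, 838 and 283 FPKM in 6w BM, 97.7, 14.9 and 263 FPKM in 8w BM, and 41.1, 40.5 and 54.3 FPKM in E12.5 PL. Every 3w BM library lay above every 1w BM library and above every liver library, while the 8w BM libraries spanned a 17.7-fold range. In order of mean, 6w BM (458 ± 330 FPKM, SD, n = 3) came before 3w BM (254 ± 88.6), 8w BM (125 ± 126) and 4w BM (85.6 ± 15.5). The ranges of these neighbours overlapped. The lowest mean, 15.3 ± 2.67 FPKM in 1w BM, stood below all of the others without overlap, apart from the single library 8w BM2. Klf2 also had a residual spread within groups of 0.84 on the log2 scale. Among 9200 genes whose mean reached 5 FPKM, 99.7% had a smaller one, and the median was 0.13.

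The difference of 3w BM minus 1w BM was 3.92 for Klf2 (SE 0.62, limma adjusted p = 0.000244), a fold of 15.2 in FPKM + 1. Its 95% interval was 2.65 to 5.20 in log2. Leaving out any of the 6 libraries gave 3.67 to 4.16. Klf2 also rose in 6w BM against 4w BM (2.19, SE 0.62, limma adjusted p = 0.0463). That call was lost without any of the 4w BM libraries, without 6w BM2 or without 6w BM3, at adjusted p values of 0.0614 to 0.262. Klf2 fell in 8w BM against 6w BM by 2.40 (limma adjusted p = 0.0165). Without 8w BM2 the difference was -1.28 (adjusted p = 0.119), without 6w BM2 it was -1.85 (adjusted p = 0.142), and without 8w BM3 it was -3.31. Klf2 was lower in 1w BM than in E16.5 FL (-1.78, limma adjusted p = 0.0416). That call was lost without E16.5 FL2, without E16.5 FL3 or without any 1w BM library, at 0.0646 to 0.127. The main fit shares its estimate of spread across all groups. A fit of the 1w BM and E16.5 FL libraries alone kept the call (limma adjusted p = 0.00074). The 4w BM minus 3w BM difference of -1.52 was not called (limma adjusted p = 0.126) but passed in such a fit, at 0.00989. Such fits did not call 6w BM minus 4w BM (limma adjusted p = 0.0504) or 8w BM minus 6w BM (limma adjusted p = 0.182). Between 8w BM and E16.5 FL the difference was 0.43 (limma adjusted p = 0.632). It was 1.54 without 8w BM2 (adjusted p = 0.0110) and -0.48 without 8w BM3, so it turned on which 8w BM library was left out.

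Klf4, a factor of pluripotency and of monocyte differentiation, was lowest in E12.5 FL. Its libraries there held 2.64, 3.11 and 2.27 FPKM. They held 19.3, 19.6 and 19.7 FPKM in E16.5 FL, 21.3, 25.1 and 42.6 FPKM in Perinatal BM, and 13.1, 21.9 and 15.3 FPKM in 1w BM. No E16.5 FL library came near an E12.5 FL library, and the difference of E16.5 FL minus E12.5 FL was 2.49 (SE 0.44, limma adjusted p = 0.000181). Markers of several other cells were also higher at that step. Of those tested, 8 of 14 monocyte and macrophage, 10 of 12 lymphoid and 7 of 10 erythroid markers rose and none fell. Monocyte and macrophage markers summed to 167 to 219 FPKM in E16.5 FL, against 87.2 to 109 FPKM in E12.5 FL. Lymphoid markers summed to 89.1 to 256 FPKM in E16.5 FL, against 29.7 to 33.5 FPKM in E12.5 FL. The part of all these markers in the result was not tested. In older marrow Klf4 reached 47.1, 43.3 and 58.7 FPKM in 3w BM, 29.5, 26.6 and 27.5 FPKM in 4w BM, 50.1, 173 and 61.2 FPKM in 6w BM, and 21.7, 9.08 and 58.9 FPKM in 8w BM. Among these older marrow libraries the highest was 6w BM2 and the lowest 8w BM2, as for Klf2. Klf4 rose in 3w BM against 1w BM (1.53, limma adjusted p = 0.0287). That call was lost without 1w BM1, without 1w BM3 or without any 3w BM library, at 0.0566 to 0.113. A fit of the 3w BM and 1w BM libraries alone kept it (limma adjusted p = 0.000449). Klf4 fell in 8w BM against 6w BM by 1.78 (limma adjusted p = 0.0132), a call lost in a fit of those groups alone (limma adjusted p = 0.164). Without 6w BM2 that difference was -1.24 (adjusted p = 0.137), without 8w BM2 it was -1.16 (adjusted p = 0.117), and without 8w BM3 it was -2.44. Between 8w BM and E16.5 FL the difference was 0.22 (limma adjusted p = 0.749), and it was 0.84 without 8w BM2 and -0.44 without 8w BM3.

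Klf6, a broadly expressed activator that mouse embryos need for yolk sac haematopoiesis, had the highest mean of the 8 genes in every group except 1w BM and 6w BM, in Perinatal BM by little (83.6 FPKM, and 83.4 FPKM for Klf10). Its libraries held 158, 149.8 and 130.4 FPKM in E12.5 FL, 159, 179.7 and 205 FPKM in E16.5 FL, 70.1, 61.6 and 119 FPKM in Perinatal BM, and 30.9, 35.7 and 34.9 FPKM in 1w BM. The 1w BM libraries were the lowest of the series, with no overlap with any other group. They were followed by 256, 221 and 310.3 FPKM in 3w BM, 132, 119 and 129 FPKM in 4w BM, 282, 557 and 307 FPKM in 6w BM, and 172, 83.6 and 207 FPKM in 8w BM. Klf6 fell in Perinatal BM against E16.5 FL by 1.16 (limma adjusted p = 0.00241) and again in 1w BM against Perinatal BM by 1.22 (limma adjusted p = 0.00320). Over both steps, 1w BM minus E16.5 FL was -2.38 (SE 0.27, limma adjusted p = 1.27e-06). In 3w BM against 1w BM it rose by 2.91 (SE 0.27, limma adjusted p = 3.12e-07). It fell in 4w BM against 3w BM by 1.04 (limma adjusted p = 0.0190). That call was lost without 3w BM1, 3w BM3, 4w BM1 or 4w BM3, at 0.0611 to 0.0800. A fit of the 4w BM and 3w BM libraries alone kept it (limma adjusted p = 0.00319). Klf6 rose in 6w BM against 4w BM by 1.52 (limma adjusted p = 0.00172) and fell in 8w BM against 6w BM by 1.34 (limma adjusted p = 0.00242). The fall did not pass in a fit of the 8w BM and 6w BM libraries alone (limma adjusted p = 0.0773). With both 6w BM2 and 8w BM2 left out, a setting chosen after seeing the data, 8w BM minus 6w BM was -0.64 (adjusted p = 0.163).

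Klf9, a gene that glucocorticoids induce directly, was scarce in liver and in young marrow and abundant in marrow from 3 weeks on. Its libraries held 1.31, 0.785 and 0.908 FPKM in E12.5 FL, 2.32, 1.38 and 1.43 FPKM in E16.5 FL, 7.76, 3.69 and 4.66 FPKM in Perinatal BM, and 1.95, 2.86 and 1.90 FPKM in 1w BM. They held 19.0, 18.7 and 14.0 FPKM in 3w BM, 16.2, 18.0 and 14.2 FPKM in 4w BM, 25.4, 34.0 and 23.9 FPKM in 6w BM, and 13.9, 15.1 and 19.5 FPKM in 8w BM. Every library from 3w BM on lay above every earlier liver and marrow library. Klf9 rose in 3w BM against 1w BM by 2.50 (SE 0.23, limma adjusted p = 3.29e-07). It was higher in 8w BM than in E16.5 FL by 2.67 (SE 0.23, limma adjusted p = 6.29e-09), a fold of 6.35 in FPKM + 1. Its means in these groups were 16.2 and 1.71 FPKM, so that fold understates the change in FPKM. Unlike Klf2, Klf4 and Klf6, its level in 8w BM2 lay between those of the other 8w BM libraries. Klf9 also rose in Perinatal BM against E16.5 FL (1.20, limma adjusted p = 0.000535) and fell in 1w BM against Perinatal BM by 0.94 (limma adjusted p = 0.00749). The fall was lost without Perinatal BM1 (-0.68, adjusted p = 0.0604).

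Mast cell and basophil markers were high in the same perinatal libraries. Their summed level over 14 genes was 1552 to 4158 FPKM in Perinatal BM, against 15.0 to 63.1 FPKM in E16.5 FL. It was 117 to 192 FPKM in 1w BM, and all 14 reached 1 FPKM in each Perinatal BM library. Their part in the perinatal values of Klf9, Klf10 and Klf6 was not tested.

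Klf10, also known as TGF-β inducible early gene 1, rose at both steps between E12.5 FL and Perinatal BM. Its libraries held 19.3, 18.5 and 14.0 FPKM in E12.5 FL, 46.3, 40.8 and 39.3 FPKM in E16.5 FL, 68.5, 91.3 and 90.2 FPKM in Perinatal BM, and 54.6, 91.4 and 61.4 FPKM in 1w BM. The first 3 of these groups did not overlap. Klf10 rose by 1.25 in E16.5 FL against E12.5 FL (limma adjusted p = 0.000556) and by 0.96 in Perinatal BM against E16.5 FL (limma adjusted p = 0.00576). The later libraries held 116, 107 and 107 FPKM in 3w BM, 88.3, 101 and 65.8 FPKM in 4w BM, 151, 232 and 129 FPKM in 6w BM, and 42.7, 35.8 and 84.9 FPKM in 8w BM. The 3w BM minus 1w BM difference of 0.70 did not pass (limma adjusted p = 0.0775), and passed without 1w BM2 (0.91, adjusted p = 0.0383). Klf10 rose in 6w BM against 4w BM (0.97, limma adjusted p = 0.0287), a call lost without 4w BM1, 4w BM3 or 6w BM2, at 0.0729 to 0.193. It fell in 8w BM against 6w BM by 1.68 (SE 0.25, limma adjusted p = 0.000115), with every 8w BM library below every 6w BM library.

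Klf13, which activates Ccl5 in T cells, moved over a narrower range. It lay at 19.2 to 21.3 FPKM in E12.5 FL, 30.7 to 45.5 FPKM in E16.5 FL, 38.9 to 43.4 FPKM in Perinatal BM and 20.7 to 32.7 FPKM in 1w BM. It then lay at 48.2 to 54.8 FPKM in 3w BM, 25.9 to 42.1 FPKM in 4w BM, 55.1 to 105 FPKM in 6w BM and 25.2 to 33.1 FPKM in 8w BM. The 3w and 6w BM ranges stood above all other groups and did not overlap each other. Klf13 rose in E16.5 FL against E12.5 FL (0.82, limma adjusted p = 0.00479) and in 3w BM against 1w BM (1.02, limma adjusted p = 0.00323). It fell in 8w BM against 6w BM by 1.29 (limma adjusted p = 0.000346). It fell in 1w BM against Perinatal BM by 0.71 (limma adjusted p = 0.0235), a call lost without Perinatal BM2, Perinatal BM3, 1w BM1 or 1w BM3, at 0.0550 to 0.109. It rose in 6w BM against 4w BM (1.02, limma adjusted p = 0.00642), a call lost without 4w BM3 or 6w BM2, at 0.0596 to 0.0642.

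Klf3 and Klf7 were the least variable across liver and marrow. Klf3, the CtBP-recruiting repressor that Klf1 activates in erythroid cells, ranged from 8.37 to 19.1 FPKM over the 24 liver and marrow libraries. Its highest mean there was 17.7 ± 1.82 FPKM in E16.5 FL and its lowest 10.4 ± 1.78 FPKM in 6w BM (SD, n = 3 each). Neighbours in the order of means overlapped throughout. Klf3 was lower in 8w BM, at 10.7, 11.8 and 10.5 FPKM, than in E16.5 FL, at 15.6, 18.3 and 19.1 FPKM (-0.64, SE 0.17, limma adjusted p = 0.00374). Klf7, which the mouse nervous system needs for axon growth, had group means of 1.49 to 2.79 FPKM in liver and marrow, and no step between these groups passed. Its difference of Perinatal BM minus E16.5 FL was 0.42 (limma adjusted p = 0.196), and it passed without Perinatal BM2 (0.77, adjusted p = 0.0100). Exons of Klf3 overlap Gm20033, and those of Klf7 overlap Gm26649 and Gm13748, all on the opposite strand in GENCODE M21. Whether counting used strand is not given in the sources used here, so reads of these genes and of their antisense partners cannot be told apart.

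**Figure D3:**
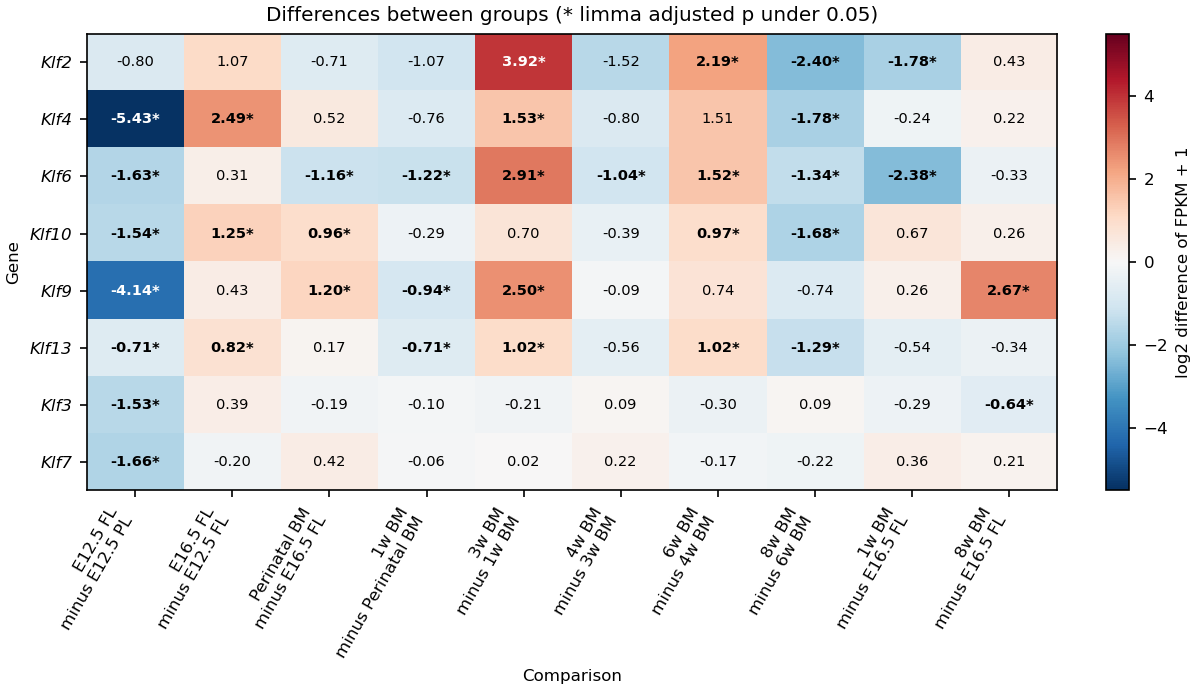
Differences of mean log2(FPKM + 1) between groups for the 8 genes, first-named group minus second, with an asterisk for a limma adjusted p under 0.05. Klf2, Klf4, Klf6, Klf9 and Klf13 are marked at 3w BM minus 1w BM and no gene is marked as lower there, while Klf2, Klf4, Klf6, Klf10 and Klf13 are marked as lower at 8w BM minus 6w BM.

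Taken by step, E16.5 FL minus E12.5 FL called 3 of the 8 genes, all higher, where 19% of all genes tested were higher. Perinatal BM minus E16.5 FL called 2 as higher and 1 as lower, where 14.2% of all genes were higher and 14.2% lower. The step 1w BM minus Perinatal BM called 3 as lower, against 8.97%. At 3w BM minus 1w BM, 5 of 8 were higher and none lower, where 5.69% of all genes were higher. The median difference of the 8 genes was 1.28, against -0.0046 for all genes tested. Markers of other cells also moved at that step. Of 12 lymphoid markers tested 4 rose and none fell, with a summed level of 133 to 169 FPKM in 3w BM, against 61.4 to 75.5 FPKM in 1w BM. Of 14 monocyte and macrophage markers tested 5 rose and none fell, with overlapping sums of 324 to 340 FPKM in 3w BM and 269 to 379 FPKM in 1w BM. Of 14 mast cell and basophil markers 6 fell, with sums of 97.0 to 104 FPKM in 3w BM, against 117 to 192 FPKM in 1w BM. The part of these markers in the result was not tested. At 4w BM minus 3w BM only Klf6 was called, as lower, against 4.56% of all genes, and no member was called by limma without 3w BM1, 3w BM3, 4w BM1 or 4w BM3. At 6w BM minus 4w BM, 4 of 8 were higher, against 2.59%, with a median of 1.00. That count fell to 1 without 4w BM3 or without 6w BM2, and to 2 without 4w BM1. At 8w BM minus 6w BM, 5 of 8 were lower, against 5.21%, with a median of -1.31, and 3 were called without 6w BM2 or without 8w BM2. Markers of other cells also differed there: the 15 monocyte and macrophage markers summed to 412 to 489 FPKM in 8w BM, against 236 to 345 FPKM in 6w BM, and their part was not tested. Across the longer spans, 1w BM minus E16.5 FL called 2 as lower, against 11.9%. The span 8w BM minus E16.5 FL called 1 as higher, against 20.5%, and 1 as lower, against 19.7%, shares near those of all genes. The first of these counts was 1 without E16.5 FL2, E16.5 FL3, 1w BM1 or 1w BM3. Successive steps share a group, so a high 6w BM level enters both of its neighbours.

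Immediate-early genes moved at the same steps. In 3w BM against 1w BM, 15 of the 20 rose and none fell, among them Jund (1.99), Jun (1.69), Nr4a1 (1.74) and Fosb (1.78), log2 differences that passed the limma threshold. In 6w BM against 4w BM 7 rose and none fell, and in 8w BM against 6w BM 17 fell and none rose. The summed immediate-early level was 7217 to 9162 FPKM in 3w BM, against 2869 to 4071 FPKM in 1w BM. It was 11286.5 to 17676 FPKM in 6w BM, against 6976 to 7385 FPKM in 4w BM. Within groups, the library with the highest immediate-early sum also had the highest Klf4 in 8 of 9 groups and the highest Klf2 and Klf6 in 7 of 9. It had the highest Klf7 and Klf13 in 5 groups each, the highest Klf9 in 4, the highest Klf10 in 3 and the highest Klf3 in 2. With 3 libraries per group, unrelated genes also match in some groups, and the share over all genes was not computed.

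The 2 measures parted in other places. The summed immediate-early level was 2869 to 4071 FPKM in 1w BM and 3244 to 3635 FPKM in E16.5 FL, ranges that overlap, while Klf6 was 30.9 to 35.7 FPKM in 1w BM and 159 to 205 FPKM in E16.5 FL. The sums of 3w and 4w BM lay close together, at 6976 to 7385 FPKM in 4w BM and 7217 to 9162 FPKM in 3w BM, and Klf2 was 72.7 to 103 FPKM in 4w BM and 176 to 350.3 FPKM in 3w BM. In 8w BM2 the immediate-early sum of 4051 FPKM lay within the range of 1w BM, and so did Klf2 at 14.9 FPKM. Klf6 at 83.6 FPKM and Klf9 at 15.1 FPKM in that library lay above every 1w BM library. The part of the immediate-early state in the Krüppel-like factor differences was not tested.

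**Figure D4:**
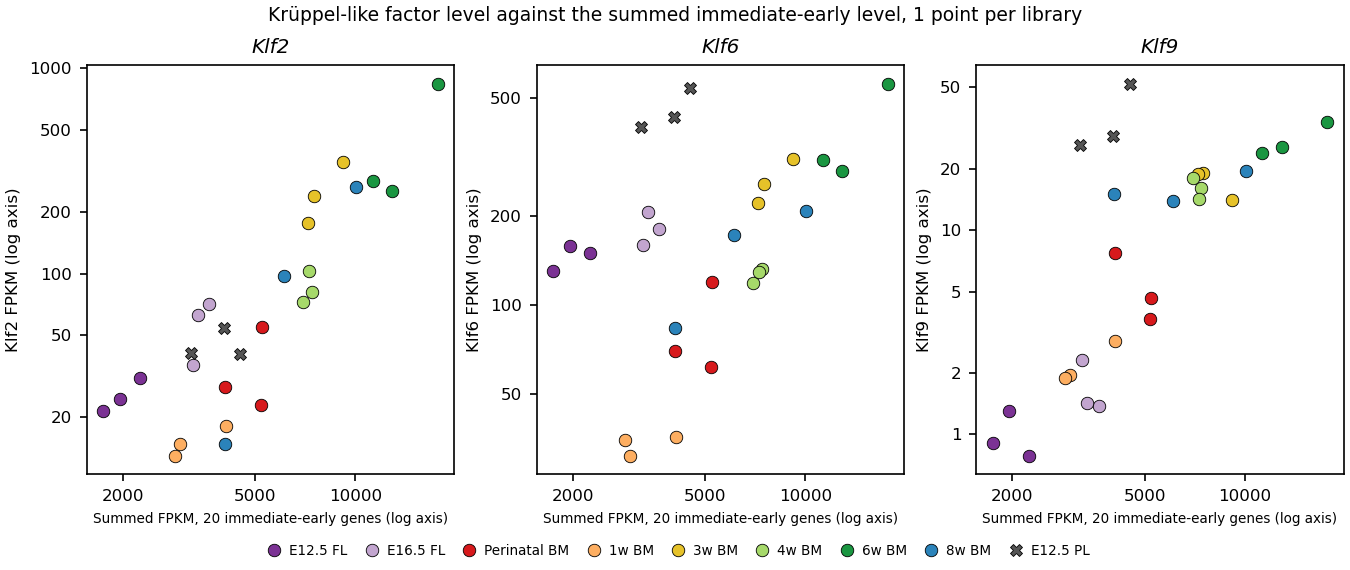
FPKM of Klf2, Klf6 and Klf9 against the summed FPKM of 20 immediate-early genes, both on log axes, with 1 point per library coloured by group. The 6w BM points lie furthest right, with Klf2 at 252 to 838 FPKM, and the 1w BM and E16.5 FL points share a range on the horizontal axis but stand apart in Klf6.

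The shares of these 8 genes in their summed FPKM differed between groups and were not tested. The groups differ in organ as well as age. The other 9 Krüppel-like factor genes of the table are left out, and summed to 78.9 to 98.9 FPKM in 1w BM. The 8 genes summed to 228 ± 18.6 FPKM in E12.5 FL, 357 ± 28.7 FPKM in E16.5 FL, 296 ± 68.1 FPKM in Perinatal BM and 179 ± 36.0 FPKM in 1w BM (SD, n = 3 each). The sum was 759 ± 134 FPKM in 3w BM, 392 ± 9.65 FPKM in 4w BM, 1219 ± 635 FPKM in 6w BM and 421 ± 241 FPKM in 8w BM. Klf6 made up 64.0% ± 1.27 of it in E12.5 FL and 19.3% ± 2.74 in 1w BM, where Klf10 had the largest share, 38.3% ± 3.08. Klf2 made up 8.61% ± 0.84 in 1w BM, 32.8% ± 5.64 in 3w BM and 35.2% ± 6.75 in 6w BM. FPKM corrects for transcript length, so levels of different genes can be set side by side on this scale.

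**Figure D5:**
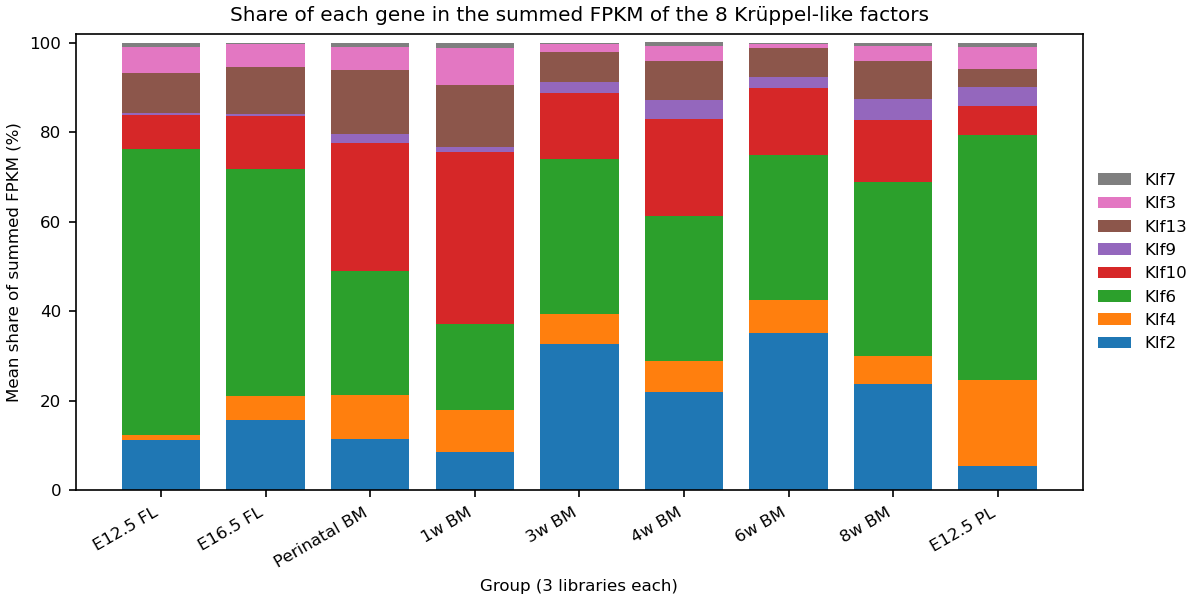
Mean share, in percent, of each of the 8 genes in their summed FPKM, with 1 stacked bar per group of 3 libraries. Klf6 takes 64.0% in E12.5 FL and 19.3% in 1w BM, and Klf10 takes 38.3% in 1w BM.

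Against E12.5 PL, E12.5 FL had lower levels of 7 of the 8 genes, where 41% of all genes tested were lower. Klf4 was at 2.64, 3.11 and 2.27 FPKM in E12.5 FL, against 116, 219 and 152 FPKM in E12.5 PL (-5.43, SE 0.44, limma adjusted p = 1.18e-10). Klf9 was at 0.785 to 1.31 FPKM in E12.5 FL, against 26.2 to 52.0 FPKM in E12.5 PL (-4.14, SE 0.23, limma adjusted p = 1.28e-13). Klf3, Klf6, Klf7 and Klf10 were lower by 1.53 to 1.66 and Klf13 by 0.71 (limma adjusted p = 0.00458). Klf2 was at 21.5 to 30.9 FPKM in E12.5 FL, against 40.5 to 54.3 FPKM in E12.5 PL, without overlap, but did not pass (-0.80, limma adjusted p = 0.250). A fit of these 6 libraries alone called it, at 0.00178. The libraries of E12.5 FL and E12.5 PL also differed in markers of other cells. The 15 trophoblast markers summed to 16.1 to 17.5 FPKM in E12.5 FL, with Hand1, Elf5 and Prl3d1 at 0 in each library, against 3392 to 4158 FPKM in E12.5 PL. The 15 endothelial markers summed to 341 to 373 FPKM in E12.5 FL, against 1181 to 1515 FPKM in E12.5 PL. The 14 HSPC markers summed to 1024 to 1070 FPKM in E12.5 FL, against 487 to 505 FPKM in E12.5 PL. The part of these markers in the differences was not tested.

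Of the other Krüppel-like factor genes, 9 were in the table and 7 were tested. In 3w BM against 1w BM only Klf11, a close relative of Klf10, rose (0.56, limma adjusted p = 0.0314), at 66.7 ± 1.92 FPKM in 3w BM and 45.4 ± 6.60 FPKM in 1w BM. In 8w BM against 6w BM, Klf11 and Klf16 fell and none rose. In E16.5 FL against E12.5 FL, 5 of 7 rose, including Klf11, Klf16, Klf8 and the erythroid factor Klf1. In E12.5 FL against E12.5 PL, 5 fell. Klf14 was listed at 0 in every E12.5 FL library and averaged 4.47 ± 1.51 FPKM in E12.5 PL. Of the related Sp factors, 4 of 9 were tested. All 4 rose in E16.5 FL against E12.5 FL and none was called by limma in 3w BM against 1w BM, where 2 had an unadjusted p under 0.05.

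Genes known to act on Klf2 or to depend on it were followed at the step where Klf2 rose most. Of 15 genes of the kinase cascade and other regulators upstream of Klf2, 1 rose in 3w BM against 1w BM and none fell, a share near the 5.69% of all genes that were higher. It was Mef2d (0.49, limma adjusted p = 0.0245), while Mef2a and Mef2c of the same list were not called. The part of these genes in the Klf2 difference was not tested. Of 10 genes linked to Klf2 in lymphocytes and endothelium, 1 fell and none rose at that step. It was the integrin gene Itga4 (-0.57, limma adjusted p = 0.00251). S1pr1, a well-known Klf2 target of T cells, was not called at that step. Over a longer span, S1pr1 averaged 6.49 ± 2.17 FPKM in 8w BM and 36.3 ± 5.59 FPKM in E16.5 FL. That fall passed the limma threshold (-2.34), while Klf2 was not called in that span (0.43, limma adjusted p = 0.632). Of the 10 linked genes 2 rose and 2 fell there, where 20.5% of all genes were higher and 19.7% lower.

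Signals known to induce single members were followed through their other targets. Of 10 glucocorticoid-linked genes, 4 rose, 1 fell and 5 were not called in 3w BM against 1w BM, the step at which Klf9 rose most. Of all genes tested, 5.69% were higher there. The genes named next are the 4 of that list with the smallest adjusted p, all of them rises. Tsc22d3 averaged 89.1 ± 10.1 FPKM in 3w BM and 25.2 ± 1.83 FPKM in 1w BM (log2 difference 1.78), and Per1, Fkbp5 and the receptor gene Nr3c1 rose by 1.94, 1.20 and 0.46. Of 12 genes of the TGF-β pathway, 3 rose and none fell at that step, the feedback inhibitors Skil (1.80), Smad7 (0.81) and Tgif1 (0.67). In 8w BM against 6w BM, 4 of the 12 fell and none rose, with Skil at -3.19, where 5.21% of all genes were lower. The part of these signals in the Krüppel-like factor differences was not tested. Of 10 corepressor genes, among them Sin3a and Ctbp2, none was called by limma at either step. In that list 4 had an unadjusted p under 0.05 in 3w BM against 1w BM and 0 in 8w BM against 6w BM.

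By group means of log2(FPKM + 1) over the 8 liver and marrow groups, the genes most like Klf2 among 1392 candidates were Jund (Pearson r = 0.98), Bcl3 and Jun (0.95 each), Rhob (0.94) and Rassf1 (0.93). For Klf4 they were Ube2j1, Smad7 and Aff1, for Klf6 Trmt10c, Ccl4 and Klf2, and for Klf9 Gch1, Dusp1 and Neat1. For Klf10 they were Bhlhe40, Gadd45b and Tnfrsf12a, and for Klf13 Ier5, Nfkbiz and Lysmd3. Among the 8 genes themselves, the closest pair was Klf10 and Klf4 (r = 0.96) and the most opposed was Klf9 and Klf3 (r = -0.76). These values describe 8 group means, with every gene read from the same libraries, and carry no test.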

How the data were processed

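The 27 libraries of bulk RNA sequencing were described as purified HSPCs of C57BL/6 mice. Those of E12.5 PL also held high trophoblast and endothelial markers, and those of Perinatal BM high mast cell and basophil markers. Per the labels' protocols, total RNA was isolated with Tri Pure reagent and libraries were built with an Illumina TruSeq kit. STAR 2.7, HTSeq 0.6.1p1, Trim Galore, FastQC and the GRCm38 build appear in the submitters' processing notes. The deposited values are FPKM computed by the authors, with the tool, the annotation and any strand setting not given in the sources used here. Counts are not given, so the depth is unknown and limits precision by an unknown amount. FPKM correct for length and library size but not for composition, which a median-of-ratios scaling was used to check.

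Analysis used log2(FPKM + 1). Genes at or above 1 FPKM in 3 or more libraries (13350 of 24418 entries) were fitted with limma 3.58.1 in R 4.3.3 (lmFit, eBayes with a trend). The fit had a mean for each of 9 groups, over all 27 libraries, leaving 18 residual degrees of freedom. The Benjamini-Hochberg adjustment ran over all genes tested within each of 10 comparisons, and calls were made at an adjusted p under 0.05. Calls were tested on simulated data. The genes, the marker and pathway lists and the rule for named genes (up to 4 of a list by smallest adjusted p, and the 3 or 5 genes most like a member by Pearson r of group means) were chosen with earlier results of these data known. Likeness was sought among genes whose mean reached 5 FPKM and with a range of group means of at least 1 on the log2 scale, without clone-like or predicted names. A few genes picked by this rule are not reported here. Promoter windows and positions came from RefSeq (GRCm38.p6) and GENCODE M21. The alternatives tried were median-of-ratios scaling, a filter at 5 FPKM or none, a pseudocount of 0.1, the compared libraries only, a replicate block, no E12.5 PL libraries, and each library left out in turn. Figures were drawn with matplotlib 3.10.9 in Python 3.11.15.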

Additional observations from a re-analysis of the deposited data

How the results depend on the processing

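Of the 35 called differences between groups, none changed sign in 459 alternative values, and 410 of these values kept the call. The other 49 lost it, in 11 differences, and 26 of 597 values for the 45 uncalled differences gained one. The 3w BM minus 1w BM differences of Klf2, Klf6, Klf9 and Klf13 kept their calls under every alternative run. The counts that follow are out of the 8 genes. The share of all genes called under each alternative is not reported here, so the counts are not set against it. With only the compared libraries fitted, the count was 6 for E16.5 FL minus E12.5 FL and 3 for 4w BM minus 3w BM. It was 1 for 6w BM minus 4w BM and 3 for 8w BM minus 6w BM. Those fits have fewer residual degrees of freedom. Without a filter on low values, more genes enter the adjustment, and the count was 2 for 6w BM minus 4w BM and 1 for 1w BM minus E16.5 FL. Without 6w BM2 and 8w BM2 together, chosen after seeing the data, it was 2 for 6w BM minus 4w BM, 2 for 8w BM minus 6w BM and 4 for 8w BM minus E16.5 FL, where Klf2 rose by 1.54 (limma adjusted p = 0.00290) and Klf4 by 0.84 (limma adjusted p = 0.0427). Leaving out 1 library at a time gave counts of 0 to 1 for 4w BM minus 3w BM, 1 to 5 for 6w BM minus 4w BM, 3 to 6 for 8w BM minus 6w BM and 1 to 2 for 1w BM minus E16.5 FL.

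Libraries with the same replicate number had residual correlations of -0.21 to 0.23 (median -0.011), and those with other numbers -0.28 to 0.27 (median -0.0029). These values showed no pairing by number, but with 3 libraries per group they cannot exclude one. A replicate block changed no call of the 8 genes: it kept 5 at 3w BM minus 1w BM, 4 at 6w BM minus 4w BM and 5 at 8w BM minus 6w BM. Depth is unknown, which limits low values such as those of Klf7 and of Klf9 in liver.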
